A study of Mus musculus with 14 samples.

Results

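The microRNAs (miRNAs) described here are the mature products of the miR-10, miR-99/100 and miR-125 hairpins in vesicles released by mouse neutrophils. They were the 10 names of a fixed list found among the 1695 mouse miRNA names of the deposited count table, and all 10 were present: mmu-miR-10a-5p, mmu-miR-10b-5p, mmu-miR-99a-5p, mmu-miR-99b-5p, mmu-miR-99b-3p, mmu-miR-100-5p, mmu-miR-125a-5p, mmu-miR-125a-3p, mmu-miR-125b-5p and mmu-miR-125b-2-3p. The species prefix is left out below. Small RNA had been sequenced from small extracellular vesicles, which are membrane-bound particles shed by cells, collected with a commercial SBI kit. The donor cells were Ly6G-positive neutrophils isolated from bone marrow. The mice were female, wild-type and of the BALB/c strain, and their age is not given in the sources used here. One group of 7 libraries came from cells kept for 48 h with DMSO, the solvent, and the other group of 7 from cells kept for 48 h with 27-hydroxycholesterol (27HC), which cells make from cholesterol, at 10 µM. The series concerns the effect of such vesicles on breast cancer cells, and the comparison asks which miRNAs differ in vesicles after 27HC. Each library carries a replicate number from 1 to 7 and a pair of consecutive numbers whose meaning is not stated. Nothing says that the libraries came from separate animals or cultures, and p-values then measure only the spread between these samples, which may be technical.

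A miRNA is cut from a hairpin whose 2 arms can each give a mature strand, named 5p and 3p, and it pairs with messenger RNAs mainly through its seed, bases 2 to 8. The miR-10 genes lie inside the Hox gene clusters and are an old branch of the same superfamily as miR-99 and miR-100, which are known to repress the growth kinase mTOR. miR-125 is the vertebrate counterpart of the worm developmental regulator lin-4, and miR-125b is known for its activity in blood stem cells and leukaemia. miR-10b is also known from work on breast cancer metastasis.

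The 5p sequences are shown because names with one seed may share targets (not tested) and some differ so little that reads could be assigned wrongly. They are from RefSeq (GRCm38.p6), written 5′ to 3′ with the seed in capitals. The first pair shares the seed ACCCUGU.
miR-10a-5p: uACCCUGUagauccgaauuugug
miR-10b-5p: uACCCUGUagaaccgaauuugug

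The next 3 share the seed ACCCGUA.
miR-99a-5p: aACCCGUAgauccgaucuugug
miR-99b-5p: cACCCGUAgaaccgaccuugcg
miR-100-5p: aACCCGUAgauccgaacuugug

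The last pair shares the seed CCCUGAG with miR-351-5p, which is not in the list but lies close to it in abundance.
miR-125a-5p: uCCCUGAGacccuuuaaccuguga
miR-125b-5p: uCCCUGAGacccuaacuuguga
miR-351-5p: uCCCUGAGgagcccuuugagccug

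Counted from the 5′ end, miR-10a-5p and miR-10b-5p differ at 1 base, U12A, and miR-99a-5p and miR-100-5p at 1 base, U16A. miR-99b-5p differs from miR-99a-5p at 4 bases (A1C, U11A, U16C, U21C). miR-125a-5p and miR-125b-5p share their first 13 bases and differ by 3 changes or inserted bases in all. Of the 1431 names with a sequence in the RefSeq table, 2 have the first seed, 3 the second and 5 the third, where miR-6367 and miR-6394 are the others. The authors' rule for reads that match several names is not given in the sources used here.

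The genes form single hairpins and clusters. On GRCm38, miR-10a-5p is encoded on chromosome 11 at 96317186 to 96317208, between Hoxb5 and Hoxb4, and miR-10b-5p on chromosome 2 at 74726074 to 74726096, in introns of Hoxd3 and Hoxd4. Mir99b, Mirlet7e and Mir125a lie within 683 bases on chromosome 17, where the miR-99b-5p sequence is at 17830194 to 17830215 in an intron of Spaca6. Mir99a, Mirlet7c-1 and Mir125b-2 span 47400 bases on chromosome 16 inside the non-coding host gene Mir99ahg, with miR-99a-5p at 77598940 to 77598961 in an intron. Mir100, Mirlet7a-2 and Mir125b-1 span 50565 bases on chromosome 9, with miR-100-5p at 41531437 to 41531458 in introns of the non-coding genes 3110039I08Rik and Gm49317. miR-125b-5p can come from chromosome 9 (41581940 to 41581961) or chromosome 16 (77646279 to 77646300), and its counts do not tell these sources apart. These positions are those of the reference tables and not of the counts, for which the submitters' processing notes name GRCm39.

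Library totals ran from 112914 to 871189 counts, so that the limit of 3 counts, which a count of 0 allows, stood at 3.44 CPM, the usual unit of counts relative to the library total, in the deepest library and at 26.6 CPM in the shallowest. Such limits and the intervals on single libraries cover counting error only, since it is not stated whether reads or molecules were counted. Levels below are CPM with TMM scaling between libraries, unless stated otherwise. miR-223-3p and miR-142a-3p, which mark myeloid and blood cells, were present in every library, and the summed level of the 4 myeloid names ran from 83291 to 216664 CPM in DMSO and from 113054 to 149157 CPM in 27HC libraries. Of these 4, both miR-142a arms were lower with 27HC at an edgeR adjusted p under 0.05. The 12 stromal, endothelial and muscle names, cell types known to express miR-125b and miR-100, summed to 1843 to 3568 CPM in DMSO and 1762 to 4393 CPM in 27HC libraries, and 0 of the 7 tested were called. Erythroid names (1 of 4 tested) gave 0 calls, lymphoid names (2 of 3 tested) 1 lower call, miR-150-5p, and liver names (3 of 3 tested) 0 calls. Liver names summed to 3363 to 5170 CPM in DMSO and 2553 to 4449 CPM in 27HC libraries. Of these, miR-122-5p averaged 3232 CPM with DMSO and 3061 CPM with 27HC. The erythroid sums were 505 to 1062 CPM with DMSO and 730 to 1126 CPM with 27HC. The lymphoid sums were 1057 to 1395 CPM with DMSO and 781 to 1627 CPM with 27HC. The part of all these cell types in the levels below was not tested. In bulk vesicle RNA, fewer vesicles with a miRNA, or from a cell type, and less of it per vesicle cannot be told apart.

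Of the 10 names, 6 passed the filter on low counts and were tested, and edgeR called 0 of these at an adjusted p under 0.05. Over all 239 tested names 30 were called, 12.6% of them, 9 higher and 21 lower with 27HC (7 and 30 with upper-quartile scaling). At an unadjusted edgeR p under 0.05 the members gave 0, against 22.2% of all tested names. limma-voom also called 0 of the 6, and DESeq2 0 of the 4 to which it gave an adjusted p (not miR-10b-5p and miR-100-5p). In 0 of the 6 did the 2 groups separate without overlap, against 5.44% of all tested names. The log2 fold changes of the 6 had a median of −0.046 and ran from −0.21 to 0.55, and the median over all tested names was 0.010. A p that misses the threshold does not show equal levels, and the intervals below give the changes these libraries still allow.

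Most counts of these families belonged to miR-10a-5p. The 10 names together took up 1.57 ± 0.159% of a library with DMSO and 1.43 ± 0.212% with 27HC (SD, n = 7). miR-10a-5p made up 84.2 ± 1.91% of the family counts with DMSO and 82.6 ± 3.37% with 27HC, miR-125b-5p 10.1 ± 1.51% and 11.6 ± 2.87%, and miR-125a-5p 4.17 ± 1.02% and 4.33 ± 1.35%. The other 7 names shared the small remainder, as the plot of levels by library shows.

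**Figure D1:**
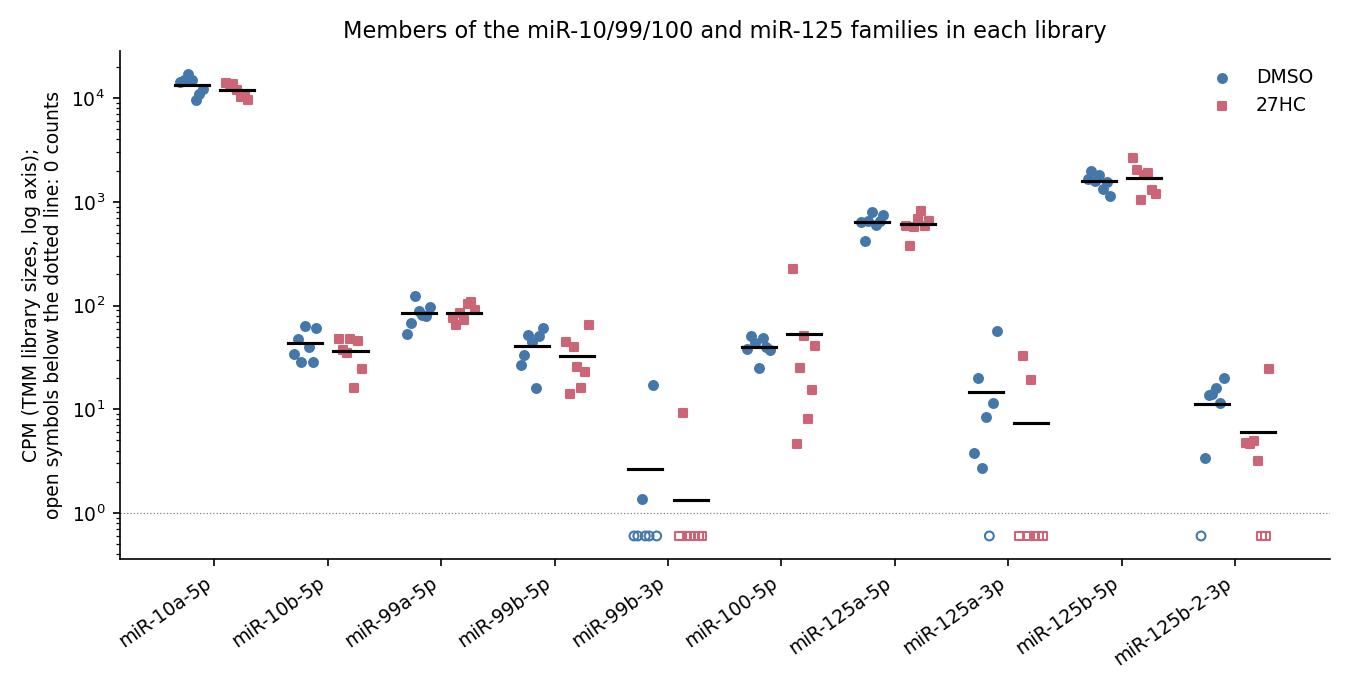
CPM of the 10 names in each of 14 libraries on a log axis, with DMSO as circles, 27HC as squares, and a bar at each group mean; open symbols under the dotted line are libraries with 0 counts. miR-10a-5p lies between 9554 and 17135 CPM in all libraries, and miR-100-5p has 1 library with 27HC at 225 CPM above all the others.

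miR-10a-5p was the 11th most abundant of the tested names. In DMSO libraries it ran from 9614 to 17135 CPM with a median of 14171, and in 27HC libraries from 9554 to 14028 CPM with a median of 12060.2. The groups overlapped, and 1 library with 27HC lay just outside, below the DMSO range. The fitted log2 difference, 27HC minus DMSO, was −0.16 ± 0.13 (SE) with an adjusted p of 0.546 by edgeR, a fold of 0.898 with a 95% interval from 0.741 to 1.09. miR-10a-5p therefore gave the narrowest interval of the 6.

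The other arm of the same hairpin, miR-10a-3p, is the strand usually discarded. It stood at 3.32 ± 0.681 counts for every 100 of miR-10a-5p in DMSO and at 3.20 ± 0.594 in 27HC libraries (SD, n = 7). The log2 difference was −0.19 ± 0.12 (SE; adjusted p 0.406 by edgeR), and 4 of 7 levels with 27HC were below the DMSO range. Both strands of the hairpin were thus lower in mean and neither passed the test.

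miR-10a-5p levels fell into sets by replicate number. In DMSO libraries, replicates 1 to 4 ran from 14171 to 17135 CPM and replicates 5 to 7 from 9614 to 12275 CPM. In 27HC libraries the same sets ran from 12060.2 to 14028 CPM and from 9554 to 11047 CPM. The sets did not overlap in either group, which held for 29 of the 239 tested names (12.1%), miR-10a-5p the only one of the 6 members among them. The split was known from earlier results on all names of these libraries, and its meaning is not stated in the labels, so no test is given for it. miR-10a-3p showed no such split, at 430 ± 41.6 and 433 ± 59.4 CPM in the DMSO sets (SD, n = 4 and n = 3), so that the 3p strand per 100 counts of the 5p strand ran from 2.26 to 3.45 in replicates 1 to 4 and from 3.61 to 4.07 in replicates 5 to 7. Within replicates 1 to 4 the log2 difference of miR-10a-5p was −0.12 (edgeR adjusted p 0.393) and within replicates 5 to 7 it was −0.080 (edgeR adjusted p 0.829). Library totals fell into the same sets. With DMSO they ran from 265651 to 871189 counts in replicates 1 to 4 and from 112914 to 252014 in replicates 5 to 7. With 27HC they ran from 229324 to 405902 and from 119852 to 127014. With log2 library total as a covariate the log2 difference of miR-10a-5p was −0.0093 (edgeR adjusted p 0.964). How far the split rests on library totals was not tested.

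**Figure D2:**
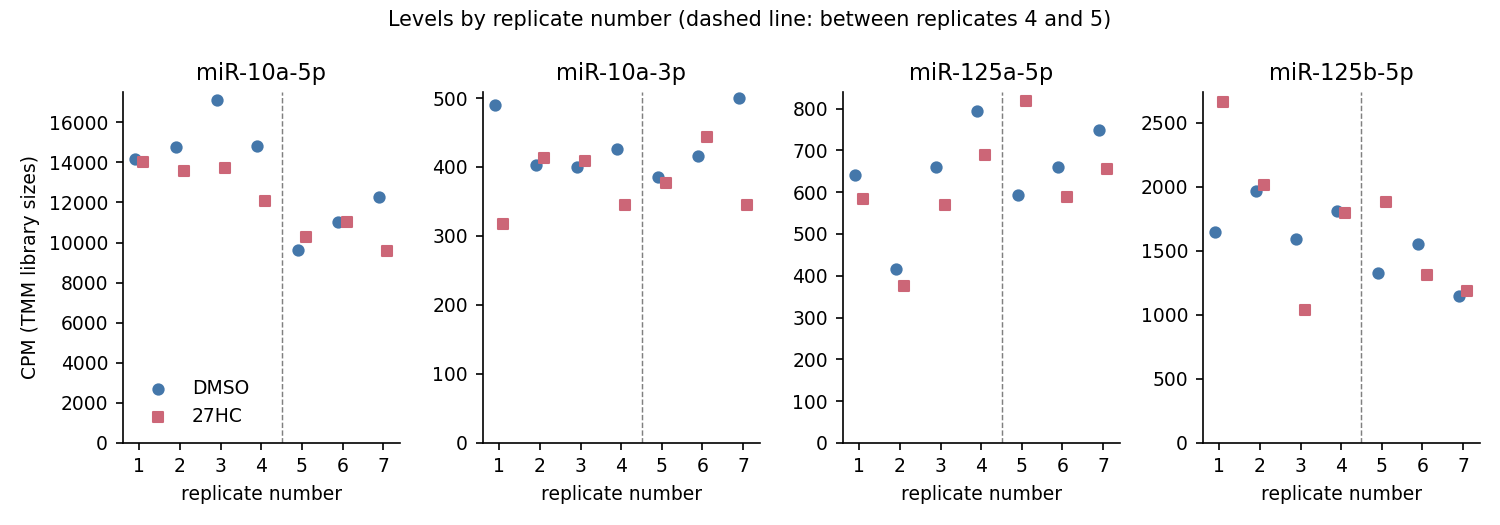
CPM of miR-10a-5p, miR-10a-3p, miR-125a-5p and miR-125b-5p against replicate number, with DMSO as circles and 27HC as squares, each axis starting at 0. For miR-10a-5p every library of replicates 5 to 7 lies under the libraries of replicates 1 to 4 with the same treatment, which is not seen for the 3p strand.

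miR-10b-5p, from the Hoxd cluster, was scarce. It ran from 28.4 to 64.04 CPM in DMSO libraries (median 40.1) and from 16.03 to 47.4 CPM in 27HC libraries (median 37.1), on 2 to 23 counts a library. The ranges overlapped, and 2 levels with 27HC were below the DMSO range. The log2 difference of −0.21 ± 0.29 (SE; adjusted p 0.896 by edgeR) had a 95% interval from −0.83 to 0.40. With 1 library left out the lower limit ran from −0.95 to −0.65 and the upper from 0.34 to 0.62. The interval rests on the F statistic and the p on a Poisson fit, which gave the larger p, so the interval may be too narrow. This also held in 10 of the 14 fits with 1 library left out. In replicates 1 to 4 alone the log2 difference was 0.050. miR-10b-5p reached 0.332 ± 0.118 counts per 100 of miR-10a-5p with DMSO and 0.298 ± 0.0901 with 27HC (SD, n = 7). The names differ at 1 base, and whether miR-10a-5p reads are among the counts of miR-10b-5p was not tested.

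miR-125b-5p was the second most abundant member. DMSO libraries ran from 1150 to 1970.4 CPM (median 1591) and 27HC libraries from 1038 to 2659 CPM (median 1799). The 27HC group spread more widely, with a coefficient of variation of 33.3% against 17.6%, and its libraries lay both above and below the DMSO range. The log2 difference was 0.11 ± 0.19 (SE; adjusted p 0.828 by edgeR), a fold of 1.08 with a 95% interval from 0.816 to 1.43.

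miR-125a-5p ran from 417 to 794 CPM in DMSO libraries (median 660) and from 376 to 818 CPM in 27HC libraries (median 589). The ranges nearly coincided, and replicate 2 was the lowest in both groups. The log2 difference was −0.080 ± 0.17 (SE; adjusted p 0.857 by edgeR), a fold of 0.946 with a 95% interval from 0.738 to 1.21, and its sign changed under some settings.

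Between these paralogues, which share a seed, 42.5 ± 12.8 counts of miR-125a-5p stood against every 100 of miR-125b-5p with DMSO and 39.6 ± 14.5 with 27HC (SD, n = 7). On the log2 scale the ratio of miR-125a-5p to miR-125b-5p, with 0.5 added to each count, differed by −0.14 (exact two-sided permutation p 0.663, adjusted 0.843). It was 1 of 4 ratios tested, adjusted together, over all 3432 ways to assign 7 of the 14 libraries to a group, with a smallest possible p of 0.000583. The ratio of miR-10a-5p to miR-10b-5p differed by 0.072 (exact permutation p 0.786, adjusted 0.843), which is less than its SD of 0.56 among DMSO libraries. For both pairs of paralogues the difference was smaller than the spread between replicates.

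miR-351-5p, which has the miR-125 seed but comes from the X chromosome, added 36.7 ± 11.9 counts for every 100 of miR-125a-5p and miR-125b-5p together with DMSO and 46.4 ± 9.35 with 27HC (SD, n = 7). Its level was 806 ± 223 CPM with DMSO and 1035 ± 154 CPM with 27HC (SD, n = 7), and 2 of 7 levels with 27HC were above the DMSO range. The log2 difference was 0.36 (SE 0.17), with an unadjusted edgeR p of 0.0471 and an adjusted p of 0.217, and it was not called. The other names with the miR-125 seed, miR-6367 and miR-6394, held 13 and 2 counts in all DMSO libraries together and 28 and 5 in all 27HC libraries.

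**Figure D3:**
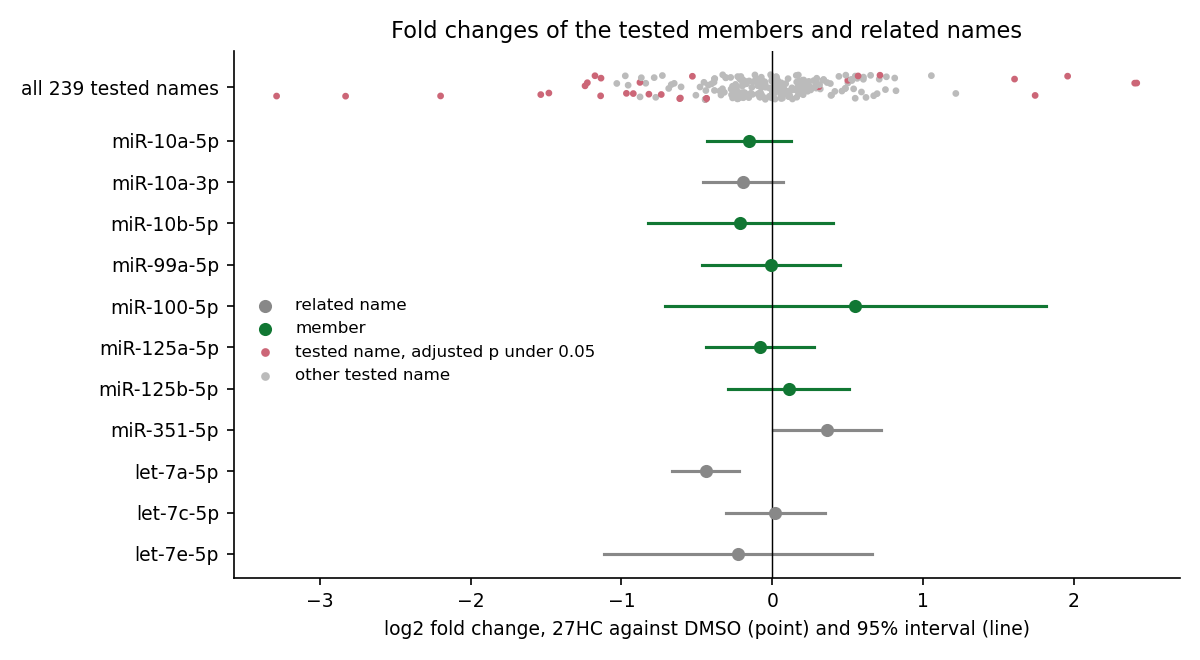
Log2 fold change of 27HC against DMSO (points) with 95% intervals (lines) for the 6 tested members in green and for related names in grey; the top row shows all 239 tested names, with calls in red. The intervals of all 6 members include 0, and among the members miR-100-5p has the widest one.

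miR-99a-5p was the most abundant name with the miR-99/100 seed. It ran from 53.1 to 124 CPM in DMSO libraries (median 80.2) and from 64.9 to 107 CPM in 27HC libraries (median 84.8), so that every library with 27HC lay inside the DMSO range. The log2 difference of −0.011 ± 0.22 (SE; adjusted p 0.980 by edgeR) had a 95% interval from −0.47 to 0.45, and its sign changed under many settings.

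miR-100-5p differs from miR-99a-5p at 1 base and behaved otherwise. In DMSO libraries it ran from 25.1 to 50.4 CPM (median 39.8) on 6 to 32 counts. In 27HC libraries replicate 1 stood at 225 CPM, from 95 counts, and the other 6 ran from 4.64 to 50.6 CPM on 1 to 16 counts. In that library its unscaled CPM was 234 with an exact (Clopper-Pearson) 95% interval from 189 to 286, apart from every other library, of which the highest upper bound was 116. The mean with 27HC was 52.7 ± 77.7 CPM (SD, n = 7), and 24.1 ± 18.5 CPM (SD, n = 6) without replicate 1, against 40.3 ± 8.41 CPM with DMSO (SD, n = 7).

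The sign of the difference depended on that library and on the method. Over all libraries the log2 difference of miR-100-5p was 0.55 ± 0.60 (SE; adjusted p 0.672 by edgeR) with a 95% interval from −0.71 to 1.81, and 4 of 7 levels with 27HC were below the DMSO range while 2 were above it. It was −0.16 with limma-voom on the same libraries, and −0.029 in edgeR with the replicate number as a block. Without 27HC replicate 1 it no longer passed the filter on low counts. Fitted without that filter, the difference was 0.50 with all libraries (edgeR adjusted p 0.623), and −0.77 without that library (edgeR adjusted p 0.567), an alternative added after seeing the data. The median over all names was −0.19 in both. None of these fits called miR-100-5p.

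In 27HC replicate 1, miR-100-5p stood 4.44-fold over the highest of the other 13 libraries, the largest such excess among the 239 tested names. miR-125b-5p had rank 3 by this measure, at 2659 CPM and 1.32-fold over the next library. One of its hairpins, Mir125b-1, lies in the same cluster as Mir100. miR-125b-1-3p, the other arm of that hairpin, had 0 counts in this library and from 0 to 8.20 CPM in the other 27HC libraries. It had 3 counts in all 27HC libraries together, and a count of 0 in this library allows up to 7.39 CPM, so a rise could not be judged. let-7a-5p, which Mirlet7a-2 of that cluster and other hairpins can give, was not raised there, at 2642 CPM within a range of 2592 to 3565 CPM over the 27HC libraries. miR-99a-5p and miR-99b-5p stood at 75.7 and 44.9 CPM in that library, inside the range of the others. The stromal, endothelial and muscle names summed to 1878 CPM there, under the 27HC median of 1946 CPM.

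miR-99b-5p did not pass the filter, with 5 of 14 libraries at or above the 41.2 CPM, without TMM scaling, that it needs in 7. Its counts ran from 2 to 38, and its levels from 16.04 to 60.4 CPM with DMSO (median 44.5) and from 13.9 to 65.6 CPM with 27HC (median 25.3). The ranges overlapped over most of their length. Without the filter the log2 difference was −0.43 ± 0.47 (SE; adjusted p 0.692 by edgeR), where the median over all names was −0.19.

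**Figure D4:**
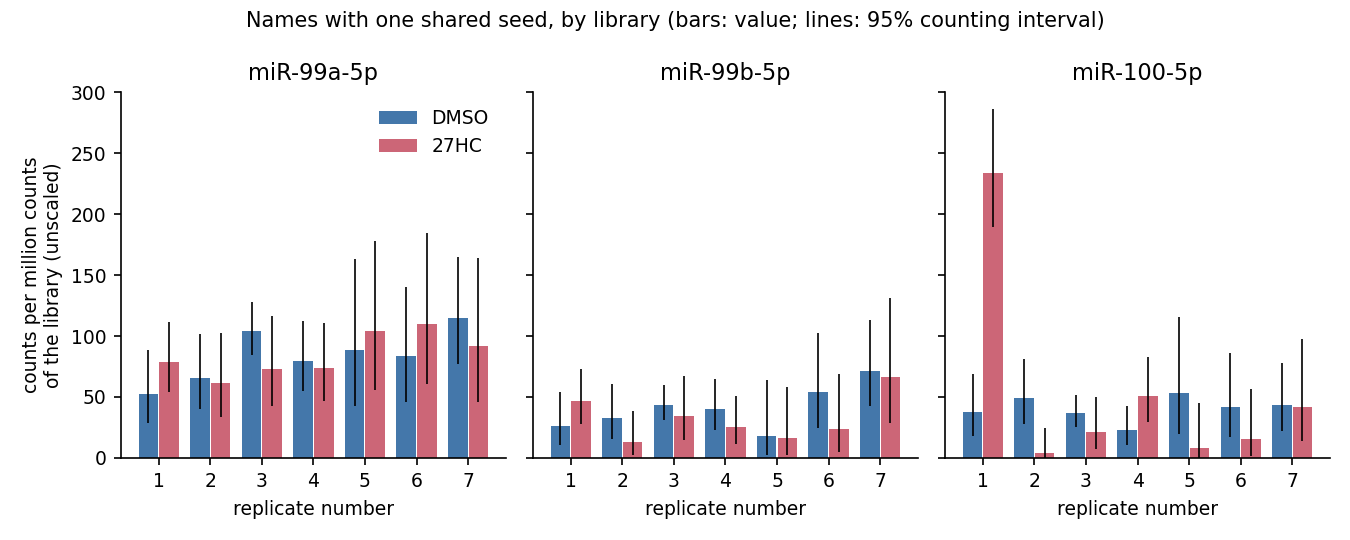
CPM without TMM scaling of the 3 names with the seed ACCCGUA by replicate number; bars are values and lines exact 95% binomial intervals. The bar of miR-100-5p in 27HC replicate 1, at 234, stands above the intervals of all other libraries, and the same library is not high for miR-99a-5p or miR-99b-5p.

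The 3p members were at the edge of detection. miR-99b-3p had 4 counts in all DMSO and 2 in all 27HC libraries, and was at 0 in 11 of the 14. miR-125a-3p had 31 counts with DMSO, in 6 of 7 libraries and 17 of them in replicate 7, and 13 counts with 27HC, in 2 of 7. miR-125b-2-3p had 26 and 8 counts, in 6 and 5 libraries. miR-99a-3p, which shares the seed of miR-99b-3p, had 4 counts with DMSO and 0 with 27HC. Without the filter the edgeR adjusted p-values of the 3 members were 0.916, 0.623 and 0.623, and no difference was detectable at this depth.

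Of the hairpin clusters, the one on chromosome 17 gave unequal amounts of its 5p strands. For every 100 counts of miR-125a-5p, DMSO libraries held 6.31 ± 2.19 of miR-99b-5p and 6.69 ± 2.28 of let-7e-5p, and 27HC libraries 5.42 ± 2.86 and 6.82 ± 3.54 (SD, n = 7). The log2 ratio of let-7e-5p to miR-125a-5p differed by −0.089 (exact permutation p 0.843, adjusted 0.843), and that of miR-99a-5p to miR-100-5p by 0.50 (exact permutation p 0.486, adjusted 0.843). Without 27HC replicate 1 the second difference was 1.02 (exact permutation p 0.0624, adjusted 0.249).

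Of the 6 let-7 names listed for these clusters, 5 were in the table and 3 were tested. let-7a-5p, a differentiation-linked miRNA with several source hairpins, was called lower with 27HC, at −0.44 (SE 0.11, edgeR adjusted p 0.00940). let-7c-5p at 0.019 (SE 0.15) and let-7e-5p at −0.23 (SE 0.42) were not called. Of the 5 listed other arms of the members' hairpins, 4 were in the table and miR-10a-3p alone was tested.

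The names whose levels followed those of a member most closely over the 14 libraries were, for miR-10a-5p, miR-339-5p (Spearman rho 0.925), miR-503-5p (0.899) and miR-140-3p (0.859). These 3 also separated replicates 1 to 4 from 5 to 7 in both groups, and how far the likeness rests on that split was not tested. For miR-99a-5p the closest were miR-199a-3p and miR-199b-3p (0.745 each, with the same levels) and miR-222-3p (0.741), and for miR-125b-5p miR-191-5p (0.692) with miR-486a-3p and miR-486b-3p (0.626 each). miR-125a-5p was closest to miR-126a-5p (0.613), miR-126b-3p (0.596) and miR-130b-3p (0.538). miR-10b-5p was closest to miR-326-3p (0.626), miR-501-3p (0.60) and miR-532-5p (0.591), and miR-100-5p to miR-17-3p (0.692), miR-30e-5p (0.622) and miR-29a-3p (0.587). Among the members the highest rho was 0.464, between miR-99a-5p and miR-125a-5p, and that of miR-125a-5p and miR-125b-5p was −0.14. All these values share library scaling and are a description over n = 14 libraries. The names listed for a member were picked as the highest among all tested names outside the members. Picking from so many gives high values by chance too, and how high was not assessed.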

How the data were processed

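The values were raw counts per mature miRNA name and library, deposited by the authors. Per the labels' protocols, the miRNeasy Micro kit gave the RNA and a QIAseq miRNA kit the libraries; the submitters' processing notes name R 4.1.2, edgeR, limma and GRCm39. The aligner, the counting tool and the use of molecular identifiers are not given in the sources used here. All library rows were matched to labels, with 0 left over. The whole table was fitted with edgeR 4.0.16 (R 4.3.3): quasi-likelihood test, treatment as the only term, TMM scaling, filterByExpr (minimum count 10, minimum total 15), Benjamini-Hochberg adjustment over all tested names, threshold 0.05. Standard errors were derived from the fold change and its F statistic; for 2 tested names, miR-10b-5p among them, edgeR replaced the p of that statistic by the larger one of a Poisson fit. This fit was checked on simulated counts, with 200 of 1695 names changed 4-fold: 28 of the 28 that passed the filter and 0 unchanged names were called. All simulated names had the same dispersion, and the check does not cover differences as small as those of the members. Log2 CPM used a prior count of 2. Single ratios were compared by exact permutation. Alternatives covered scaling, filter, tool (DESeq2 1.42.0, limma-voom 3.58.1), covariates, sets of replicates, summed paralogues and left-out libraries. Named miRNAs are all members, listed relatives and the 3 tested names with the highest Spearman rho per tested member. The members, lists and tests were chosen with earlier results of these data known. Positions and sequences came from RefSeq and GENCODE M21 tables on GRCm38, with a sequence for all 10 members.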

Additional observations from a re-analysis of the deposited data

Results flagged for a closer look

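Of 28 groups of 7 libraries examined (10 names and 4 ratios in each treatment), 6 had 1 library at a distance from all others, and chance flags about 1.4. Names with few counts can be flagged on a stray count, and the ratios reuse counts of the members. Whether 6 is more than chance gives was therefore not established. miR-100-5p in 27HC replicate 1 stood at 225 CPM, on 95 counts, and the next highest at 50.6 CPM. The log2 ratio of let-7e-5p to miR-125a-5p in DMSO replicate 2 was −5.15 against −4.16 in the next library, on 3 counts of let-7e-5p. The other 4 rest on few counts: miR-99b-3p at 17.1 CPM in DMSO replicate 6 (3 counts) and at 9.28 CPM in 27HC replicate 2 (2 counts), miR-125a-3p at 57.0 CPM in DMSO replicate 7 (17 counts), and miR-125b-2-3p at 24.6 CPM in 27HC replicate 7 (3 counts).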

How the results depend on the processing

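Under all 28 alternative settings 0 members were called, with a lowest unadjusted edgeR p of 0.0619 for miR-10a-5p. Not every member had a value in each: miR-100-5p had one in 19 settings, miR-10b-5p in 26 and miR-99a-5p in 27. miR-10a-5p, miR-125a-5p and miR-125b-5p had one in all 28. These numbers include the setting with paralogues summed, in which a member takes the value of its sum. Calls over all names ran from 21 to 34 in the 14 fits that left out one library and came to 12 with replicates 5 to 7 only (198 names tested). miR-10a-5p kept its sign in all 28 settings, from −0.36 to −0.0093. Signs of differences that were not called changed as follows. For miR-99a-5p the log2 fold change was 0.024 with DESeq2 size factors, 0.022 with library total as a covariate and 0.23 in replicates 5 to 7. With one library left out it ran from −0.082 to 0.17. For miR-125a-5p the log2 fold change was 0.019 with a mean count of at least 100 and 0.052 in replicates 5 to 7. With one library left out it ran from −0.18 to 0.050. The sum of miR-99a-5p, miR-99b-5p and miR-100-5p was at 0.040, and that of miR-125a-5p and miR-125b-5p at 0.042. miR-10b-5p was at 0.050 in replicates 1 to 4. miR-100-5p was at −0.16 with limma-voom and at −0.77 with no filter and without 27HC replicate 1. In that last fit miR-125b-5p was at −0.17 and miR-10a-5p at −0.36, and the median over all names was −0.19. DESeq2 gave miR-100-5p and miR-10b-5p no adjusted p. With the replicate number as a block, miR-99a-5p was at 0.017 and miR-100-5p at −0.029, and calls over all names came to 37. The numbers did not pair the libraries by the rule used, since the correlation of same-numbered deviations ran from 0.0686 to 0.60. Only for number 3 and for number 6 were the DMSO and 27HC libraries of the same number each other's best match. With 5 added to each count the log2 ratio differences were 0.067 for let-7e-5p to miR-125a-5p, −0.19 for miR-10a-5p to miR-10b-5p and −0.022 for miR-99a-5p to miR-100-5p. In replicates 1 to 4 the last 2 were −0.20 and −0.060, and in replicates 5 to 7 the first was 0.059. With one library left out the differences ran from −0.29 to 0.24, −0.042 to 0.23 and 0.21 to 1.02, and from −0.30 to 0.022 for miR-125a-5p to miR-125b-5p. The cause of these shifts was not tested. miR-100-5p did not pass the filter in 7 of the 14 leave-one-out fits. In replicates 5 to 7 the smallest permutation p that 3 against 3 libraries allow is 0.1. Low counts limit the precision for miR-10b-5p, miR-99b-5p and the 3p strands. The variance among libraries relative to counting error (chi-square per degree of freedom) was 25.2 for miR-100-5p with 27HC and 0.561 with DMSO. The 27HC value includes replicate 1, which stood far above the others. For miR-125a-3p it was 8.72 with DMSO and 4.53 with 27HC, and for miR-99b-3p 4.27 and 2.04. Counting error may thus not be the only limit for miR-125a-3p, which had 31 counts with DMSO and 13 with 27HC. miR-99b-3p had 4 and 2 counts, too few for this measure to be judged. For miR-125b-2-3p the measure was 1.22 and 1.73.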

Other observations

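Other miRNAs of the Hox clusters were present beside miR-10a-5p and miR-10b-5p. Of the 5 listed, miR-196b-5p alone was tested, at 249.6 ± 76.2 CPM with DMSO and 276 ± 72.5 CPM with 27HC (SD, n = 7). Its log2 difference was 0.15 ± 0.24 (SE; adjusted p 0.818 by edgeR). miR-196a-5p had 57 counts in all DMSO and 48 in all 27HC libraries, miR-615-3p 8 and 8, miR-615-5p 1 and 1, and miR-196b-3p 1 and 0.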
